A study of Mus musculus with 18 samples.

Results

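Cardiac resident macrophages (CRMs) of hearts from mice on a high-fat diet were compared between the CCR2-positive (CCR2+) and the CCR2-negative (CCR2-) subset. The 6 libraries were those whose labels give a high-fat diet, 3 of each subset, of 18 libraries in the series. The other 12 libraries hold the same subsets of control hearts and of aged hearts, 3 of each, and serve here only for the question of whether the subset difference depends on the condition. CRMs were sorted from the heart by antibody and flow cytometry, and their total RNA was sequenced after amplification with SMART-Seq chemistry, which copies whole transcripts and suits low RNA input. The sort on CD11b, CX3CR1 and CCR2 is described in the study's methods for young and aged mice on normal chow, which were female C57BL/6J mice, and no antibody that excludes other cell types is named there. The strain, sex and age of the mice on a high-fat diet, the composition of the diet and its duration are not given in the sources used here. The labels number the libraries 1 to 3 in each subset without saying whether equal numbers came from the same heart.

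CCR2 is the receptor for CCL2 and related chemokines, and its presence on a heart macrophage marks cells that are replenished from circulating monocytes. Macrophages without CCR2 include long-lived resident cells, for which TIMD4, LYVE1 and FOLR2 serve as markers, and these cells are known for clearing debris and dying cells. MHC class II molecules display peptides from engulfed material to CD4 T cells. Their alpha and beta chains (H2-Aa, H2-Ab1, H2-Eb1) are built together with the invariant chain CD74, and H2-DM exchanges the peptide under the restraint of H2-O.

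The promoters of 3 MHC class II genes are shown because this family held 4 of the 9 genes with an adjusted p under 0.05 between the subsets. H2-Aa and H2-Eb1 are of these 4, and H2-DMb1 is shown for a gene of the peptide exchange, which did not pass. They were taken from RefSeq (GRCm38.p6) as windows of 250 bases before to 50 bases after the start of the gene, on the strand of the gene. Capitals mark matches on either strand to the Y box core GATTGG or to the X box core, written ACNGATG with N for any base. Promoter entries were searched for 11 of the 16 MHC class II genes followed here. Entries on 1 chromosome were left out of this search, and Cd74 and H2-Ab1 were not among the 11. The 3 windows shown all hold matches to both motifs, which is not so for every gene.
H2-Aa, chr17:34287774-34288073, minus strand: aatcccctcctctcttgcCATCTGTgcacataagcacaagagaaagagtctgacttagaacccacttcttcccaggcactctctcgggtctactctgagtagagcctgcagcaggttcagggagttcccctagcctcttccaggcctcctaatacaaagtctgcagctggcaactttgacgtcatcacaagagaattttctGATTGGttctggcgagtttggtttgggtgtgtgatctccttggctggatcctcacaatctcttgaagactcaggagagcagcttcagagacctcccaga
H2-Eb1, chr17:34305617-34305916, plus strand: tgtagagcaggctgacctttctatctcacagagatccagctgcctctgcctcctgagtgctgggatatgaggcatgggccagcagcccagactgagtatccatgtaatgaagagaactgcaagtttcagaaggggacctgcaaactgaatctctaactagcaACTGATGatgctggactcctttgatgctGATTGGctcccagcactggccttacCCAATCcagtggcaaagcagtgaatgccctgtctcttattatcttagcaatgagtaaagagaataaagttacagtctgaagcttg
H2-DMb1, chr17:34152941-34153240, plus strand: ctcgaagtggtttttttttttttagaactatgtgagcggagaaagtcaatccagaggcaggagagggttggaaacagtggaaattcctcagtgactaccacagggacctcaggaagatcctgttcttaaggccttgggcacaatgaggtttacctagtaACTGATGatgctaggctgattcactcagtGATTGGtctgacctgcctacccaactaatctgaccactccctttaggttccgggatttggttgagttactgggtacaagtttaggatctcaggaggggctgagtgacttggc
The H2-Eb1 window held 1 X box match 88 bases before the start, followed by a Y box match 60 bases before it, and a further Y box match on the other strand. In H2-DMb1 the same order was found, with the X box match 91 and the Y box match 62 bases before the start. The H2-Aa window had its Y box match 49 bases before the start and its X box match 232 bases before it, on the other strand. That match did not have the strand and spacing of those in H2-Eb1 and H2-DMb1, so it is a match of letters and is not shown to be the X box. Both motifs were also matched in H2-Eb2, H2-DMb2 and H2-Oa, only the Y box in H2-Ob, only the X box in Ctss, and neither in Ifi30 and Cd80, while of the 2 windows of H2-DMa 1 held the Y box alone and 1 held neither. Of 32851 promoter windows of the same length, 16.1% held the Y box core and 9.85% held the X box core. The search was of sequence alone, and no binding was measured.

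Total counts of the 6 libraries ran from 45799310 to 54315077, with a median of 52081572, and 15380 to 16915 genes had at least 1 count. Levels are given as CPM, the count divided by the library total and put on a common scale. A count of 3, the most that a count of 0 allows, was 0.0552 to 0.0655 CPM, a limit for counting error alone, since copies made by amplification do not count separate molecules. CPM were scaled by TMM factors, which correct for differences in composition between libraries. After edgeR's expression filter 12423 genes were tested with its quasi-likelihood test and Benjamini-Hochberg adjustment. Calls required a log2 fold change above 2 or under -2 with the adjusted p below 0.05. The study's methods set the same thresholds, but for DESeq2, whose calls on these libraries differed in number and are given below. The p-values measure the spread between 3 samples per subset. Replicates were far apart, with a common dispersion of 1.33. CCR2+ library 3 and CCR2- library 3 stood apart from the rest, with correlations of log2(CPM + 1) to the other libraries of 0.628 to 0.693 and 0.628 to 0.731, against 0.741 to 0.840 among the other 4. Among the 4688 genes averaging 20 CPM or more, 24.7% were under 10% of their mean in CCR2+ library 3 and 14.8% in CCR2- library 3. These correlations and shares used CPM by library total, without TMM factors. CCR2+ library 3 also held transcripts of hepatocytes, the cells of the liver. The summed level of 14 hepatocyte genes, a list chosen after seeing the data, was 14838 CPM there and 53.8 to 194 CPM in the other 5 libraries, and Alb alone read 3727 CPM. For several gene lists the values without the libraries numbered 3 are therefore given as well. The process and cell type lists used below were chosen with earlier results of these data known, so their counts are descriptions and not independent tests.

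The labels were first checked against the markers. Ccr2 read 8.24, 30.9 and 6.75 CPM in the CCR2- libraries and 165, 324 and 282 CPM in the CCR2+ libraries. The groups did not overlap and the order follows the sort, in which CCR2 protein was used, so this is a check and not a result. Timd4, a receptor for phosphatidylserine on dying cells, read 36.0, 53.1 and 71.1 CPM in CCR2- CRMs and 2.38, 20.7 and 0.893 CPM in CCR2+ CRMs. Lyve1, a hyaluronan receptor, was at 426, 564 and 1602 CPM against 18.2, 39.8 and 149 CPM. Folr2, a folate receptor, was at 1791, 1101 and 1222 CPM in CCR2- CRMs and 119, 221 and 383 CPM in CCR2+ CRMs. All 3 resident markers were lower in every CCR2+ library than in any CCR2- library, yet no marker was called, with adjusted p-values of 0.184 for Folr2, 0.231 for Ccr2, 0.328 for Lyve1 and 0.480 for Timd4 in edgeR. CCR2+ library 2 held the highest Timd4 level of its group and CCR2+ library 3 the highest Lyve1 level. The summed level of 15 macrophage genes was 61596 to 76581 CPM in CCR2- and 65902 to 70803 CPM in CCR2+ CRMs, and these ranges overlapped. The sum does not stand for each gene. Lyz2, ranked at 1 of all genes after scaling to exon length in both subsets, had a log2 fold change of 0.28. Of the 15 genes 6 were lower in every CCR2+ library than in any CCR2- library and 1 was higher. The shares over all tested genes were 7.11% and 7.08%. The median log2 fold change of the 15 was -0.63, and 0 were called. Since RNA was pooled over cells, fewer cells of a type and less RNA per cell cannot be told apart.

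Between the subsets 6 genes were called, 3 higher and 3 lower in CCR2+ CRMs, each 0.0241% of the genes tested. The higher genes were H2-Eb1, an MHC class II beta chain, Cd209a, a C-type lectin of monocyte-derived and dendritic cells, and Plbd1, a phospholipase B domain protein. The lower genes were Cbr2, a carbonyl reductase, Vsig4, a complement receptor of resident macrophages, and Ctsf, a lysosomal cysteine protease. At the adjusted p alone the 3 genes H2-Aa, H2-Ab1 and Cd74 were added, which made 6 higher genes or 0.0483% and left 3 lower genes. At an unadjusted p under 0.05 there were 487 higher genes (3.92%) and 854 lower genes (6.87%). Over all tested genes the median difference on the log2 scale was 0.07, and it became 0.27 under RLE scaling and -0.08 by total count. The split between directions moved with the scaling, with 4 higher and 1 lower under RLE factors and 1 higher and 4 lower by library size alone. Every call depended on single libraries. Leaving out a library left 3 higher and 1 lower gene without CCR2- library 1, 1 and 0 without CCR2- library 2, 0 and 0 without CCR2- library 3, 1 and 0 without CCR2+ library 1, 2 and 0 without CCR2+ library 2, and 0 and 1 without CCR2+ library 3. Without library 3 of both subsets, an alternative chosen after seeing the data, 0 genes were called, while 616 higher and 863 lower genes had an unadjusted p under 0.05. DESeq2 called 176 higher and 572 lower genes and limma-voom 1 in each direction.

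**Figure D1:**
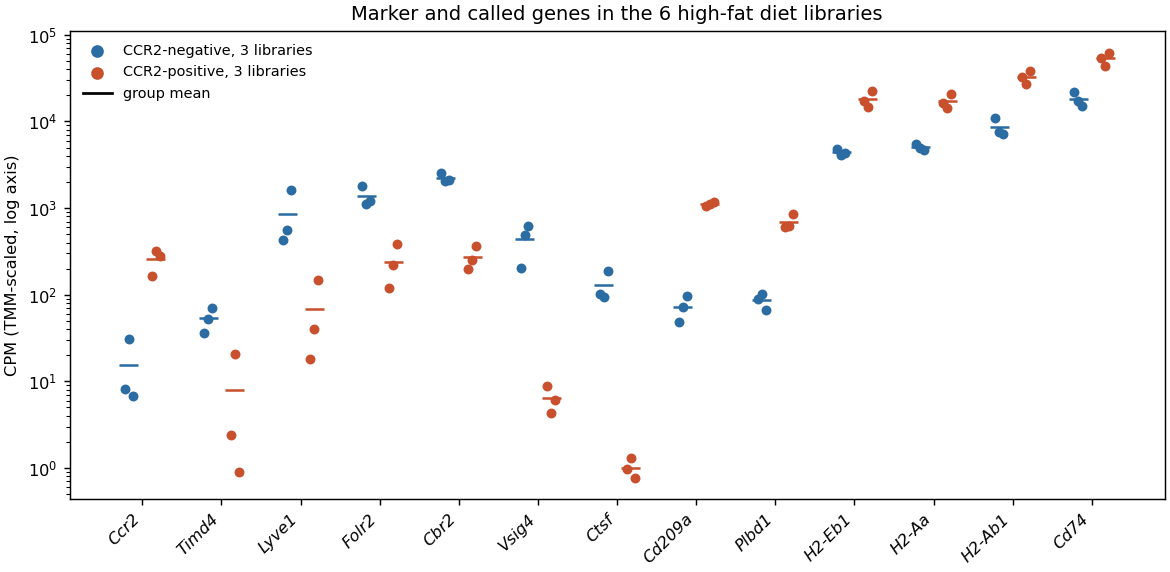
Level of the 4 markers and the 9 genes with an adjusted p under 0.05 in each of the 6 libraries, in CPM on a log axis, with points for libraries and lines for group means. In all 13 genes the CCR2+ and CCR2- libraries do not overlap, and Cd209a, at 1061, 1103 and 1165 CPM in CCR2+ CRMs, spreads least within its group.

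Most MHC class II genes lay higher in CCR2+ CRMs, and 4 of them had an adjusted p under 0.05. H2-Eb1 read 4833, 4116 and 4323 CPM in the CCR2- libraries and 17114, 14851 and 22341 CPM in the CCR2+ libraries, a log2 fold change of 2.03 (SE 0.17, adjusted p = 0.00599 in edgeR). The lowest CCR2+ library was thus above 3 times the highest CCR2- library. H2-Ab1, the other beta chain, was at 10832, 7516 and 7241 CPM in CCR2- and 32902, 27009.9 and 38012 CPM in CCR2+ CRMs, with a log2 fold change of 1.94 (SE 0.18). H2-Aa, the alpha chain, read 5547, 4893 and 4643 CPM and 16389.6, 14190.3 and 21006 CPM, with a log2 fold change of 1.77 (SE 0.16). Cd74, which blocks the peptide groove until the endosome, was at 21655, 17279 and 15249 CPM in CCR2- CRMs and 54369, 43979 and 62435 CPM in CCR2+ CRMs. Its log2 fold change was 1.57 (SE 0.16). These 3 genes had the same adjusted p of 0.00599 in edgeR and stayed under the fold change threshold of 2. Scaled to exon length, Cd74 ranked at 5 among all genes in CCR2- CRMs and at 2 in CCR2+ CRMs, while H2-Eb1 moved from rank 36 to rank 7. In the 6 fits that left out 1 library, the adjusted p of each of the 4 genes stayed under 0.05 in 5, and exceeded it without CCR2- library 3, where the lowest was 0.105. CCR2+ library 3 was the highest of its group for all 4 genes, and without it their log2 fold changes were 1.86, 1.83, 1.61 and 1.46 in the order H2-Eb1, H2-Ab1, H2-Aa and Cd74. In DESeq2 their adjusted p-values ran from 0.141 to 0.297 and none was called.

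The genes that load the peptide were higher in each CCR2+ library as well, without reaching the adjusted threshold. H2-DMb1 read 472, 317 and 273 CPM in CCR2- and 1636, 1051 and 2027 CPM in CCR2+ CRMs (log2 fold change 2.15, SE 0.35, adjusted p = 0.145 in edgeR). H2-DMa, its partner chain, was at 586, 476 and 289.8 CPM against 1255, 1098 and 1692 CPM. H2-DMb2, a further beta chain of H2-DM, was at 22.6, 48.2 and 51.8 CPM and 256, 302 and 197 CPM. The groups were apart in all 3 genes, and edgeR gave H2-DMa and H2-DMb2 an adjusted p of 0.294 each. The 2 chains of the inhibitor H2-O were scarce in CCR2- CRMs. H2-Ob read 4.83, 0.631 and 0.582 CPM there and 47.4, 29.9 and 66.6 CPM in CCR2+ CRMs, and H2-Oa read 9.23, 13.9 and 0.679 CPM and 59.4, 44.3 and 62.9 CPM. Ifi30, a thiol reductase of the endosome, was at 279, 266 and 126 CPM and 443, 441 and 399 CPM. Over the family, 10 of 16 genes lay above every CCR2- library in all 3 CCR2+ libraries, and 0 of 16 lay below, where the share over all tested genes was 7.08% above and 7.11% below. The family's median log2 fold change was 1.86 against 0.07 over all tested genes, and 1 of the 16 was called. Without library 3 of both subsets 11 of 16 lay above, against 20.2% of all tested genes, and the median was 1.52. Ciita, the transactivator of MHC class II genes, did not follow a subset, with 6.62, 0.814 and 0.756 CPM in CCR2- and 0.778, 64.9 and 0.588 CPM in CCR2+ CRMs, and its difference turned to -1.92 on the log2 scale without CCR2+ library 2. The costimulator Cd86 read 266, 332 and 697 CPM and 337, 252 and 669.5 CPM, and the groups overlapped. The processing protease Ctss read 2637, 3343 and 4202 CPM and 3881, 4449.8 and 4802 CPM and overlapped too.

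**Figure D2:**
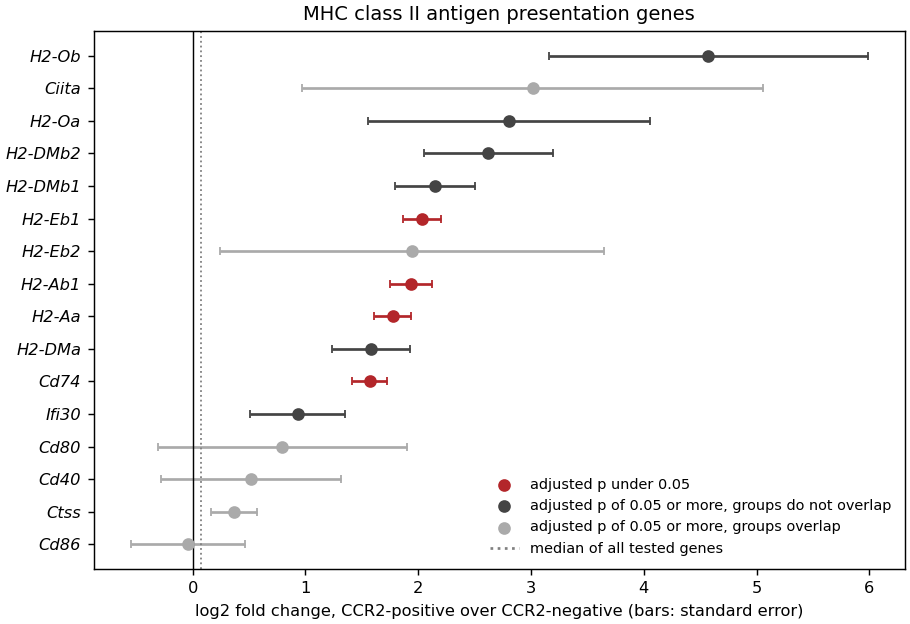
Log2 fold change of the 16 MHC class II genes between CCR2+ and CCR2- CRMs, with standard errors as bars and the median of all tested genes as a dotted line. H2-Eb1, H2-Ab1, H2-Aa and Cd74 have short bars and values from 1.57 to 2.03, H2-Ob reaches 4.57 with a wide bar, and Cd86 sits at -0.04.

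Class I genes, which display peptides from inside the cell, were measured beside class II. B2m, the shared light chain, read 7959.8, 7454 and 9103 CPM in CCR2- and 8405, 7499.9 and 9306 CPM in CCR2+ CRMs. H2-D1, a heavy chain, was at 5610.3, 5964 and 8309 CPM and 7787, 8764 and 7085 CPM, and H2-K1, another, at 1616, 1831 and 2166 CPM and 2092, 1593 and 2021 CPM. In all 3 genes the groups overlapped. Over all tested genes, 7.08% lay above and 7.11% below, and the counts of every list that follows stand beside these shares. Of 18 class I genes 3 lay above and 0 below, 0 were called, and the median log2 fold change was 0.14, against 0.07 over all tested genes.

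Cd209a and Plbd1 were the called genes on the CCR2+ side outside the MHC family. Cd209a read 48.6, 72.8 and 97.8 CPM in CCR2- CRMs and 1061, 1103 and 1165 CPM in CCR2+ CRMs, which is a log2 fold change of 3.92 (SE 0.39, adjusted p = 0.00599 in edgeR). Its adjusted p stayed under 0.05 in 1 of 6 fits without a library, with a range of 0.0290 to 0.183, while the log2 fold change stayed between 3.66 and 4.24. Plbd1 read 90.3, 103 and 67.2 CPM and 602, 629 and 855 CPM, with a log2 fold change of 3.00 (SE 0.39, adjusted p = 0.0392 in edgeR). In each of the 6 fits without a library it lost the call, at adjusted p-values of 0.123 to 0.327.

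Because dendritic cells also carry MHC class II and Cd209a, markers of these cells were followed beside the MHC result. The summed level of 13 dendritic cell genes was 135 to 188 CPM in CCR2- and 1268 to 1391 CPM in CCR2+ CRMs, and Cd209a made up most of it in CCR2+ CRMs. Flt3, the receptor for the growth factor of dendritic cells, read 0.608, 0.498 and 1.20 CPM in CCR2- CRMs and 1.44, 73.4 and 77.4 CPM in CCR2+ CRMs, so that it was high in CCR2+ libraries 2 and 3 and near the CCR2- level in library 1. Ccr7, a receptor of migrating dendritic cells, read 32.3, 20.5 and 62.3 CPM and 151, 139 and 122 CPM, without overlap. Cacnb3, also on this list, was at 0 CPM in the CCR2- libraries and at 0.356, 0.243 and 0.494 CPM in the CCR2+ libraries. Among other genes of this list, Clec9a was at 0 CPM in all 6 libraries, and Xcr1 overlapped between the subsets. Zbtb46 was at 0.0889, 0.224 and 0.235 CPM in the CCR2+ libraries and 4.20, 0.249 and 0.446 CPM in the CCR2- libraries. Fscn1 and Ly6d had log2 fold changes of -1.84 and -2.02. Of the 10 genes tested 4 lay above and 1 lay below, beside 7.08% and 7.11% of all tested genes, and Cd209a was called. The part of dendritic cells in the MHC class II difference was not tested.

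Genes known from monocyte-derived macrophages lay on the CCR2+ side, with 21 of 30 above every CCR2- library and 0 of 30 below, against 7.08% and 7.11% of all tested genes. Their median log2 fold change was 2.13, and 0 were called. Ccr2 is a member of this list and was used in the sort, and the list was chosen with earlier results of these data known. Without library 3 of both subsets 24 of 30 lay above, against 20.2% of all tested genes. Ms4a4c, a membrane protein of monocytes, read 41.9, 65.7 and 28.6 CPM in CCR2- and 389, 569.5 and 509 CPM in CCR2+ CRMs (log2 fold change 3.43, SE 0.50, adjusted p = 0.0659 in edgeR). It came closest to the threshold, and its lowest CCR2+ value was far above its highest CCR2- value. Ly6c2, the antigen of classical monocytes, was at 28.8, 37.2 and 34.0 CPM and 471, 362 and 82.0 CPM. Plac8, another gene of these monocytes, was at 203, 175 and 116 CPM and 968, 1098 and 284 CPM, and Chil3, a chitinase-like protein, was at 355, 119 and 24.9 CPM and 1237, 1656 and 515 CPM. In these 3 genes CCR2+ library 3 was the lowest of its group by a wide margin. The calcium-binding protein S100a4 read 553, 347 and 320.3 CPM in CCR2- CRMs and 1889.7, 1399 and 1267 CPM in CCR2+ CRMs. Napsa, an aspartic protease, was at 51.7, 81.2 and 49.6 CPM and 266, 445 and 339.8 CPM, and the integrin chain Itgb7 at 24.7, 31.1 and 4.60 CPM and 155, 291 and 117 CPM. In each of these monocyte genes the groups did not overlap. The most abundant member that overlapped was Ifitm3, which blocks virus entry, at 2469.8, 1459 and 1293 CPM and 2998, 2644 and 1727 CPM. Vcan and Fn1, both matrix proteins of monocytes, overlapped between the groups, and Vcan was high in CCR2+ library 2 alone at 9.83 CPM.

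Genes known from resident macrophages lay on the CCR2- side, with 22 of 36 below every CCR2- library and 1 above, against 7.11% and 7.08% of all tested genes. Their median log2 fold change was -1.65, and 2 were called, Cbr2 and Vsig4. Timd4, Lyve1 and Folr2 are members of this list, which was also chosen with earlier results of these data known. Cbr2 read 2561, 2051 and 2118 CPM in CCR2- and 201, 254 and 363 CPM in CCR2+ CRMs, which is a log2 fold change of -3.04 (SE 0.31, adjusted p = 0.00599 in edgeR). Vsig4 was at 203, 493 and 619 CPM and 8.96, 4.32 and 6.11 CPM, a log2 fold change of -6.08 (SE 0.67, adjusted p = 0.0116 in edgeR). Each kept its call in 1 of the 6 fits without a library, Cbr2 without CCR2+ library 3 and Vsig4 without CCR2- library 1, and both kept the sign in all 6. Without library 3 of both subsets 27 of 36 genes lay below, against 20.1% of all tested genes, and the median was -1.72.

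Other resident genes did not pass the threshold, and most of those named here did not overlap. Ltc4s, which makes leukotriene C4, read 348, 159 and 229 CPM in CCR2- CRMs and 17.8, 6.52 and 5.71 CPM in CCR2+ CRMs. The lectin Cd209f was at 102, 58.1 and 67.4 CPM and 1.38, 1.05 and 1.13 CPM, and its relative Cd209g at 34.7, 34.6 and 64.5 CPM and 0.489, 0.785 and 0.447 CPM. Cd209f and Cd209g thus ran against Cd209a, and reads shared between these related genes could not be checked in the counts. Fcna, a ficolin of the lectin pathway, read 235, 184 and 385 CPM and 4.51, 27.0 and 2.80 CPM. Selenop, a selenium carrier, was at 2053, 3679 and 5989 CPM and 876, 1118 and 1777 CPM. Maf, a transcription factor of resident macrophages, was at 50.7, 85.8 and 133 CPM and 21.0, 17.7 and 3.53 CPM. Among these genes CCR2- library 3 was the highest of its group in Cd209g, Fcna, Selenop and Maf. Mrc1 and Cd163, both scavenging receptors, overlapped between the groups, with Cd163 at 85.2, 194 and 685 CPM in CCR2- and 6.76, 4.56 and 101 CPM in CCR2+ CRMs. Mgl2, a galactose lectin, was the member that lay above, at 870.3, 811 and 1029 CPM and 1352, 1257 and 1614 CPM.

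**Figure D3:**
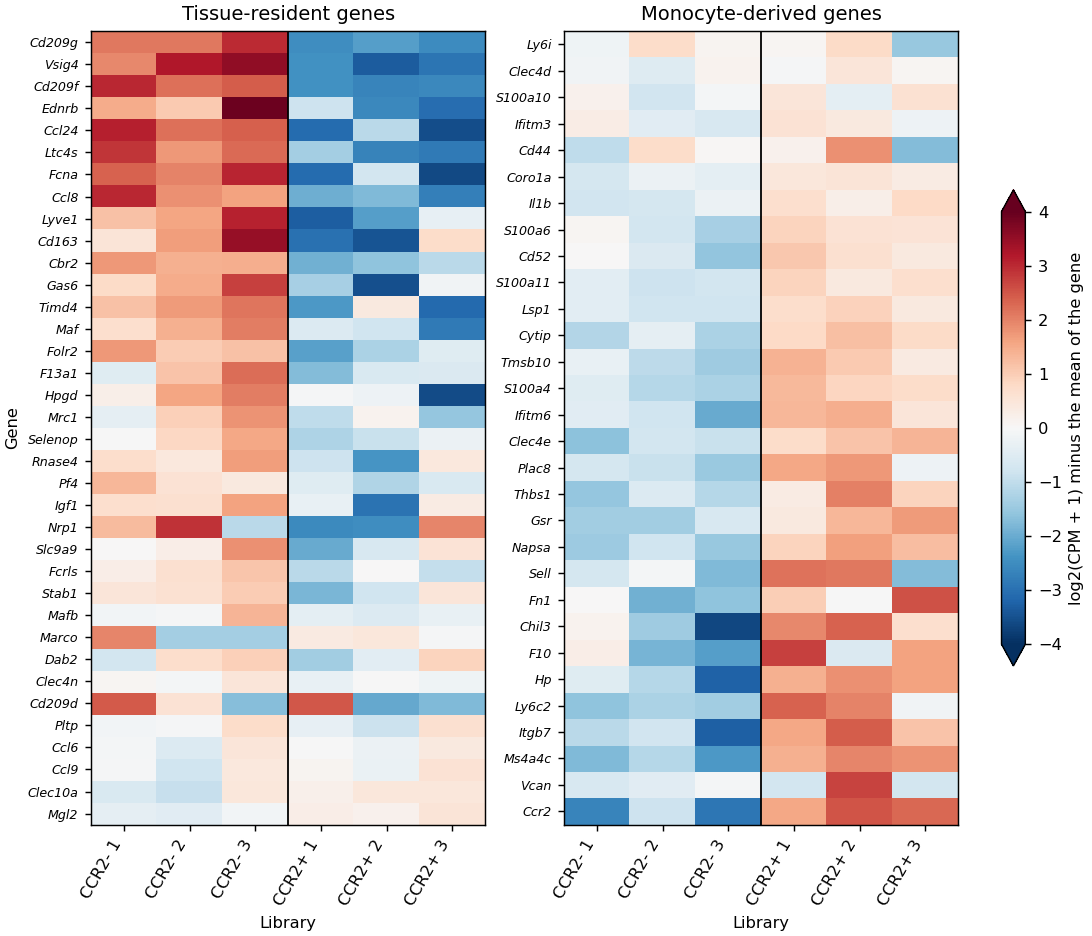
Level of the 36 resident genes and the 30 monocyte-derived genes in the 6 libraries, as log2(CPM + 1) minus the mean of the gene, with red above and blue below the mean and CCR2- libraries left of the line. Of the resident genes 22 are higher in every CCR2- library, of the monocyte-derived genes 21 are higher in every CCR2+ library, and CCR2+ library 3 is the palest of its group for Ly6c2 and Plac8.

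Chemokines did not move as one group, with 1 of 24 above, 6 below and 0 called. Ccl8, a ligand of several CC receptors, read 587, 252 and 219.8 CPM in CCR2- CRMs and 17.6, 20.1 and 9.87 CPM in CCR2+ CRMs (log2 fold change -4.48, SE 0.65, adjusted p = 0.0659 in edgeR). Ccl24, which draws eosinophils, was at 325, 171 and 197 CPM and 3.47, 16.8 and 2.26 CPM. In both genes every CCR2- library was far above every CCR2+ library. The CCR2 ligands Ccl7 and Ccl12 were also lower, Ccl7 at 4029, 2650.1 and 3036 CPM and 1849.9, 1101 and 1827 CPM, and Ccl12 at 618, 725 and 648 CPM and 285, 305 and 335 CPM. Cxcl3, another chemokine for neutrophils, was the gene that lay above, at 43.0, 25.0 and 31.4 CPM in CCR2- and 179.7, 137 and 334 CPM in CCR2+ CRMs. The most abundant chemokines did not separate the subsets, with Cxcl2, which recruits neutrophils, at 7660.2, 7600.3 and 10483 CPM and 8224, 6711 and 12676 CPM and Ccl6 at 3458, 2495 and 5024 CPM and 3595, 3052 and 4704 CPM. Of the receptors and adhesion molecules 4 of 23 lay above and 1 below. That 1 was Vcam1, an adhesion molecule, at 135, 186 and 567 CPM and 90.6, 36.4 and 6.35 CPM. Cx3cr1, used in the sort of both subsets, read 62.2, 86.2 and 26.4 CPM in CCR2- CRMs and 27.7, 79.1 and 325 CPM in CCR2+ CRMs, and the groups overlapped. The same held for Ccrl2, an atypical chemoattractant receptor, at 374, 518 and 669.7 CPM and 385, 579.7 and 882 CPM, and for the integrin chain Itgb2 at 248, 470.2 and 716 CPM and 424, 577 and 327 CPM.

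Inflammatory genes went in both directions. Il1b, the cytokine interleukin 1 beta, read 897, 945 and 1293 CPM in CCR2- and 2422, 1798 and 2668 CPM in CCR2+ CRMs (log2 fold change 1.14, adjusted p = 0.309 in edgeR). Tnf, tumour necrosis factor, read 354, 288 and 611 CPM and 158, 184 and 139 CPM (log2 fold change -1.38, adjusted p = 0.445 in edgeR). The groups did not overlap in either gene, with Il1b on the CCR2+ side and Tnf on the CCR2- side. Nfkbia, the inhibitor of NF-kB, overlapped at 2893, 2149 and 2336 CPM and 3337, 2446 and 4262 CPM. Over 30 cytokine and NF-kB genes 4 lay above, 1 below and 0 were called. Arg1, an arginase that hepatocytes also express, read 2.29, 0.631 and 0.659 CPM and 3.27, 2.97 and 149 CPM, and its high value was in CCR2+ library 3, which held the hepatocyte transcripts. The fungal receptors Clec4e and Clec7a were higher in each CCR2+ library, Clec4e at 122, 230.5 and 207 CPM and 639.6, 836 and 991 CPM, and Clec7a at 89.7, 168 and 133 CPM and 443, 713 and 633 CPM. Of 21 pattern recognition receptors 4 lay above, 1 below and 0 were called. Cd14, the coreceptor for lipopolysaccharide, was at 4503, 5619 and 9942 CPM and 7161, 8256 and 10748 CPM, with overlap, as was Tlr2, a receptor for bacterial lipopeptides, at 331, 588 and 1444 CPM and 237, 316 and 1196 CPM. Of 46 interferon response genes 3 lay above and 1 below, beside 7.08% and 7.11% of all tested genes. Without CCR2+ library 3 the count above was 10, beside 12.8%, and without library 3 of both subsets it was 15, beside 20.2%. Ifi27l2a, an abundant member, read 2064, 1093 and 710.0 CPM and 1304, 846 and 677 CPM.

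Complement and scavenging genes lay lower in CCR2+ CRMs more often than higher. C1qa, C1qb and C1qc encode the chains of C1q, which tags debris for uptake. C1qc read 8490.4, 6598 and 7807 CPM in CCR2- CRMs and 3191, 2598 and 4885 CPM in CCR2+ CRMs (log2 fold change -1.10, SE 0.24, adjusted p = 0.294 in edgeR). C1qa was at 5825, 3799 and 4364 CPM and 2479, 1646 and 3258 CPM, and C1qb at 12199, 7709 and 8408 CPM and 6421, 4145 and 7336 CPM. In all 3 every CCR2+ library was below every CCR2- library, and none was called. Of 23 complement genes 5 lay below and 1 above, 1 was called lower, which was Vsig4, and the median log2 fold change was -0.74. This median was -0.24 without CCR2- library 3 and -1.19 without CCR2+ library 3. Of 20 scavenging receptors and bridging molecules 6 lay below and 0 above, where the shares over all tested genes were 7.11% and 7.08%, with a median of -0.92. C1qa, C1qb and C1qc are on both lists, so the 2 counts share them. Vsig4 of the complement list and Timd4 of the scavenging list are also on the resident list. Fcgrt, the neonatal Fc receptor that recycles antibody, read 1648, 1501 and 1502 CPM and 458, 247 and 393 CPM (log2 fold change -2.08, SE 0.31, adjusted p = 0.0774 in edgeR). Of 10 Fc receptor genes 3 lay below and 1 above. Fcgr3, a receptor for IgG, was among those below at 4284, 3658 and 4378 CPM and 2633, 1996 and 3441 CPM, while the shared signalling chain Fcer1g overlapped at 3949.9, 2614 and 1945 CPM and 3089, 2807 and 3103 CPM. The complement regulator Cfi read 96.8 CPM in CCR2+ library 3 and at most 0.601 CPM in the other libraries, and the heme carrier Hpx 224 CPM there, both genes of the liver.

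Ctsf stood out among 34 lysosomal genes. It read 103, 93.0 and 189 CPM in CCR2- CRMs and 0.978, 1.29 and 0.776 CPM in CCR2+ CRMs, which is a log2 fold change of -6.98 (SE 0.93, adjusted p = 0.0417 in edgeR). All 6 fits without a library lost the call, at adjusted p-values of 0.123 to 0.348, with a log2 fold change between -7.26 and -6.52. Grn, the precursor of the granulins, was at 1506, 1431 and 2508 CPM and 805, 826 and 933 CPM, and the protease Ctsb at 5308, 6429 and 7823 CPM and 2993, 3378 and 4910.2 CPM. In total 11 of the 34 genes lay below and 2 above, beside 7.11% and 7.08% of all tested genes. The median was -0.52, and -0.29 without CCR2- library 3.

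Genes of lipid handling showed 2 abundant members on opposite sides. Apoe, the apolipoprotein of macrophages, read 43273, 24695 and 30873 CPM in CCR2- and 16459.5, 10394 and 15508 CPM in CCR2+ CRMs (log2 fold change -1.22, SE 0.22, adjusted p = 0.184 in edgeR). Lgals3, galectin 3, read 1797, 1574 and 1212 CPM and 3933, 2905 and 3517 CPM (log2 fold change 1.18, SE 0.22, adjusted p = 0.221 in edgeR). Neither gene overlapped between the groups. Of 27 lipid-associated macrophage genes 1 lay above and 4 below, and 0 were called. Trem2, Gpnmb and Spp1, which mark lipid-associated macrophages, overlapped between the subsets. Spp1, osteopontin, read 482, 118 and 268 CPM in CCR2- and 169.8, 117 and 94.1 CPM in CCR2+ CRMs. Of 37 genes of cholesterol and fatty acid handling 2 lay above and 2 below, and their most abundant members, the mitochondrial carrier Ucp2 and the cholesterol carrier Npc2, overlapped at log2 fold changes of -0.04 and -0.30. One of those below was Pnpla2, a triglyceride lipase, at 108, 90.0 and 259.6 CPM and 34.2, 17.5 and 38.7 CPM.

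Among growth factors and repair genes 9 of 35 lay below and 3 above, beside 7.11% and 7.08% of all tested genes. Timp2, an inhibitor of matrix proteases, read 1134, 901 and 1577 CPM in CCR2- CRMs and 446, 342 and 496 CPM in CCR2+ CRMs. Gdf15, a stress-induced factor, read 1023, 752 and 936 CPM and 379.6, 296 and 468 CPM. Plaur, the urokinase receptor, was on the other side at 548, 784 and 696 CPM and 1517, 2167 and 1966 CPM. None of the 3 overlapped and none was called, at adjusted p-values of 0.294, 0.418 and 0.184 in edgeR. Igf1, a growth factor of resident macrophages, was at 209.8, 208 and 404 CPM and 108, 16.4 and 165 CPM, lower in every CCR2+ library. The median of these genes was -0.53 and turned to 0.07 without CCR2- library 3.

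Of 45 transcription factors 9 lay below and 3 above, and their median of -0.30 became -0.0043 without CCR2- library 3 and -0.83 without CCR2+ library 3. Jun, of the AP-1 complex, read 696, 684 and 2222 CPM in CCR2- and 173, 221 and 354 CPM in CCR2+ CRMs, and Egr2, an early response factor, 10.3, 16.7 and 81.2 CPM and 0.511, 0.579 and 0.752 CPM. Bhlhe40, a repressor induced in activated macrophages, was at 18.9, 72.4 and 11.4 CPM and 188, 284 and 382 CPM. Jun and Egr2 lay on the CCR2- side and Bhlhe40 on the CCR2+ side without overlap, at adjusted p-values of 0.334, 0.418 and 0.418 in edgeR. Jund and Cebpb, the most abundant factors, overlapped at log2 fold changes of -0.23 and 0.07. Of 38 oxidative phosphorylation genes 2 lay above and 0 below, and the abundant Cox4i1 and Atp5b overlapped at -0.15 and 0.08 on the log2 scale. Of 22 glycolysis genes 3 lay above and 2 below. Without library 3 of both subsets 10 of 23 lay above, a count that holds a glycolysis gene left out of the 22, beside 20.2% of all tested genes. Eno1, an enolase, lay above at 878, 992 and 1094 CPM in CCR2- and 1495, 1486 and 1333 CPM in CCR2+ CRMs, and Pkm, a pyruvate kinase, overlapped at a log2 fold change of 0.20. Among the iron and heme genes 1 of 20 lay above and 5 below, among them Blvrb, a biliverdin reductase, at 552, 349 and 191 CPM and 132, 68.0 and 52.5 CPM. The ferritin chains Ftl1 and Fth1, which store iron, overlapped at log2 fold changes of -0.13 and 0.35, and the sign for Ftl1 turned to 0.11 under RLE factors and in DESeq2. The median of the iron and heme genes was -0.61, and -0.32 without CCR2- library 3. Of 33 cell cycle genes 2 lay above and 1 below, with a median of -0.90. Without CCR2- library 3 the count below was 8, beside 14.0% of all tested genes, and the median was -0.29. Mki67, a proliferation marker, read 7.01, 9.62 and 5.63 CPM in CCR2- CRMs and 54.6, 41.7 and 98.7 CPM in CCR2+ CRMs, while Aurkb, a mitotic kinase, read 8.19, 10.2 and 27.6 CPM and 0.889, 0.579 and 0.799 CPM, so that 2 genes of dividing cells lay on opposite sides. Hmgb2, a chromatin protein of dividing cells, lay above at 129.7, 206 and 253 CPM and 316, 344 and 437 CPM, and Stmn1, a tubulin regulator, overlapped at 350.3, 252 and 250.2 CPM and 282, 211 and 213 CPM.

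**Figure D4:**
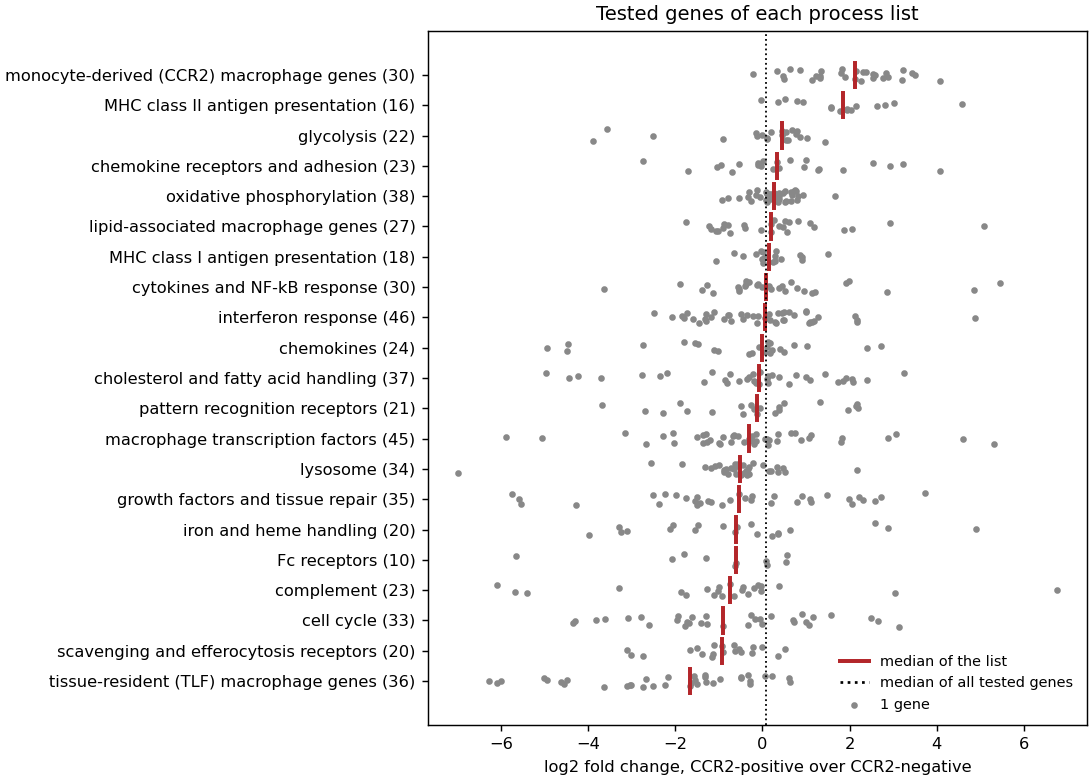
Log2 fold change between CCR2+ and CCR2- CRMs of every tested gene of 21 process lists, with 1 point per gene, the list's median in red and the median of all tested genes as a dotted line. The monocyte-derived and MHC class II lists have medians of 2.13 and 1.86, the resident list has -1.65, and the other 18 lie between -0.92 and 0.46.

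Markers of other cell types were summed to see what else the sorted cells held. Monocyte genes reached 1125 to 2471 CPM in CCR2- and 2410 to 4833 CPM in CCR2+ CRMs, which overlapped. Of these 12 genes 6 lay above and 2 below, beside 7.08% and 7.11% of all tested genes, and their median log2 fold change was 2.65. The sum includes Ccr2, whose protein was used in the sort, and F13a1, which is also on the resident list and had a log2 fold change of -2.24. Neutrophil genes were at 199 to 604 CPM and 84.9 to 369 CPM, and B cell genes at 217 to 456 CPM and 237 to 856 CPM. The highest B cell sum was that of CCR2+ library 3, where Ighd read 71.0 CPM. Fibroblast genes were at 248 to 1367 CPM in CCR2- CRMs, highest in library 3, and 142 to 346 CPM in CCR2+ CRMs. T and NK cell genes stayed at 112 to 221 CPM in both groups, and Cd8a was at 0 CPM in all 6 libraries. Within that list Gzma and Nkg7, of cytotoxic granules, were lower in each CCR2+ library, Gzma at 42.3, 102 and 97.6 CPM and 4.09, 3.66 and 8.84 CPM, and Nkg7 at 25.4, 38.7 and 44.0 CPM and 1.71, 2.06 and 2.42 CPM. Erythroid genes were at 43.7 to 272 CPM and 171 to 1105 CPM, and cardiomyocyte genes at most 72.8 CPM. Endothelial genes were at 98.0 to 291 CPM in CCR2- and 21.2 to 269.9 CPM in CCR2+ CRMs, mural cell genes at 1.30 to 62.0 CPM and 13.5 to 90.8 CPM, and mast cell and granulocyte genes at most 1.64 CPM. Platelet genes were at 2326 to 4484 CPM in CCR2- and 795 to 1273 CPM in CCR2+ CRMs, nearly all of it Pf4, a chemokine that is also on the resident list. The part of these cells in the subset differences was not tested.

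Whether the subset difference depended on the condition was asked in 1 fit of all 18 libraries with 15456 genes tested. Against control hearts the difference differed for 3 genes, or 0.0194%, each in the direction of a higher value on a high-fat diet, and for 0 genes in the other direction. At an unadjusted p under 0.05 there were 3123 genes, or 20.2%. The called genes included Rab4b, a small GTPase of endosome recycling, and Batf, an AP-1 factor of lymphoid and myeloid cells. Batf read 149.9, 123 and 157 CPM in CCR2- and 246, 149.8 and 159 CPM in CCR2+ CRMs on a high-fat diet, which overlapped. In control hearts it was at 201, 197 and 142 CPM and 4.69, 4.87 and 7.55 CPM, so that the CCR2+ libraries of control hearts were the low ones. Rab4b was at 57.1, 29.2 and 54.7 CPM and 101, 138 and 103 CPM on a high-fat diet and at 145, 263 and 147 CPM and 4.56, 3.20 and 6.32 CPM in control hearts. The 4688 genes averaging 20 CPM or more were chosen in the high-fat diet libraries. In the control CCR2+ libraries 41.8%, 39.4% and 58.7% of them were under 10% of that mean. The share was 12.9% to 33.2% in control CCR2-, 2.88% to 24.7% in high-fat diet and 3.22% to 19.1% in aged libraries. The part of this in the interactions and in the other values of control hearts was not tested. The interactions were 6.58 (SE 1.0) for Rab4b and 5.35 (SE 0.84) for Batf on the log2 scale, each at an adjusted p of 0.0299 in edgeR. Within the high-fat diet libraries neither was called, with log2 fold changes of 1.21 and 0.32. Both interactions lost the call in each of the 6 fits without a high-fat diet library, where 0 genes were called in all. They also lost it without CCR2- library 3 of control hearts, an alternative chosen after seeing the data, at an adjusted p of 0.0996 each.

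Tested on their own in the same fit, control hearts had 47 genes called higher (0.304%) and 57 lower (0.369%) in CCR2+ CRMs, and aged hearts had 0 of either. On a high-fat diet H2-Eb1 alone was called higher and Cbr2 alone lower in this fit, fewer than in the fit of the high-fat diet libraries alone.

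Against aged hearts 0 genes were called by edgeR, with 2294 genes, or 14.8%, at an unadjusted p under 0.05 and 1043 genes called by DESeq2. The genes called between the subsets on a high-fat diet were therefore set beside the other conditions as values. H2-Eb1 had a log2 fold change of 2.10 on a high-fat diet, 1.42 in control hearts and 0.45 in aged hearts in this fit. Its interaction with aged hearts was 1.65 (SE 0.430, adjusted p = 0.170) and with control hearts 0.68 (SE 0.427, adjusted p = 0.394) in edgeR. The MHC class II list had 10 of 16 genes above on a high-fat diet, 3 in control hearts and 2 in aged hearts, where the shares over all tested genes were 7.38%, 8.60% and 7.95%, and the difference between conditions was not tested for the list. The list's median was 1.93 on a high-fat diet, 1.41 in control hearts and 0.47 in aged hearts. Single genes differed in control hearts too, at adjusted p-values of 0.0427 for H2-Eb1, 0.0453 for H2-Aa and 0.0266 for H2-Ab1 in edgeR, although the libraries of the subsets overlapped there for all 3. On a high-fat diet the adjusted p-values in this fit were 0.0407 for H2-Eb1, 0.0765 for H2-Aa and 0.0784 for H2-Ab1. In each condition Cbr2 was lower in every CCR2+ library than in any CCR2- library, with log2 fold changes of -2.96, -2.03 and -1.63 in the same order. Cd209a was likewise higher in every CCR2+ library of each condition, at 3.97, 3.98 and 3.55. Ctsf was high in the CCR2- libraries on a high-fat diet, whereas in control hearts all 6 libraries were at most 2.0 CPM, and its interaction with control hearts had an adjusted p of 0.115 in edgeR. In aged hearts Ctsf read 1.06, 29.6 and 13.9 CPM in CCR2- and 1.80, 0.413 and 0.952 CPM in CCR2+ CRMs, with a log2 fold change of -3.82. Vsig4 was at log2 fold changes of -6.06 on a high-fat diet, -5.17 in control hearts and -1.94 in aged hearts, and Plbd1 at 3.08, 2.19 and 0.41.

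**Figure D5:**
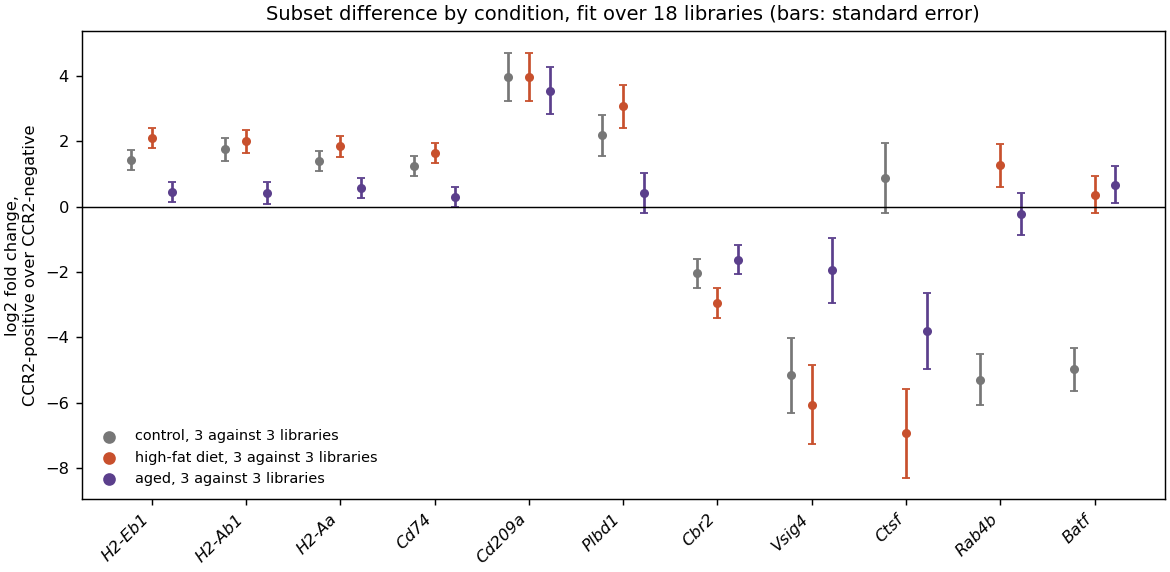
Subset difference in control, high-fat diet and aged hearts for the 9 genes with an adjusted p under 0.05 on a high-fat diet and Rab4b and Batf, which had a called interaction, as log2 fold changes with standard errors from the fit of 18 libraries. The conditions lie close together for Cd209a, and control hearts lie near -5 for Rab4b and Batf while the other conditions lie between -0.22 and 1.28.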

How the data were processed

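Gene counts of 6 libraries of CRMs from hearts on a high-fat diet were analysed, beside 12 of control and aged hearts. The counts, as deposited by the authors, are raw reads per gene. The submitters' processing notes name FastQC, cutadapt, HISAT2 and StringTie, whose versions, strand setting and handling of multi-mapped reads are not given in the sources used here. Reads of related genes (the CD209 and MHC families) may therefore be split between them.

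Samples were grouped by their labels. The counts were scaled by TMM and tested with edgeR 4.0.16 (R 4.3.3) by its quasi-likelihood test with Benjamini-Hochberg adjustment over all tested genes. Subset differences used the 6 libraries without a block for the replicate number, and interactions used all 18 libraries. Deviations of equally numbered libraries correlated at 0.0951, 0.0217 and 0.0583, so equal numbers were not treated as pairs. The tests were run on simulated data of a smaller dispersion than that of these libraries, which does not show how they perform at this spread. Named genes were the 4 markers, up to 3 called members of each list in each direction or its 2 most abundant members, up to 10 called genes in each direction outside the lists, and up to 5 called interactions in each direction. All other genes named were chosen after their values were seen. The libraries compared and the 21 process and 13 cell type lists were chosen with earlier results of these data known. The alternatives were DESeq2 1.42.0, limma-voom (limma 3.58.1), other scalings, filters and thresholds, the replicate block and leaving out libraries. The result for 1 gene with a called interaction is not reported here.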

Additional observations from a re-analysis of the deposited data

Results flagged for a closer look

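The subset difference of Rab4b differed between hearts on a high-fat diet and control hearts by 6.58 on the log2 scale and that of Batf by 5.35, each at an adjusted p of 0.0299 in the interaction test of edgeR. In both genes the 3 CCR2+ libraries of control hearts were the low ones. Those libraries also had 39.4% to 58.7% of the 4688 abundant genes under 10% of their high-fat diet mean. The part of this in both interactions was not tested. The call was lost in each fit that left out 1 high-fat diet library, at adjusted p-values of 0.0824 to 0.185.

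Among the genes named here, in 3 cases every library moved one way on a high-fat diet and the opposite way in another condition. Rab4b lay higher in CCR2+ CRMs on a high-fat diet and lower in control hearts, at a log2 fold change of -5.30 there. Bhlhe40 lay higher on a high-fat diet and lower in aged hearts, at -0.70. Egr2 lay lower on a high-fat diet and higher in control hearts, at 1.43. These 3 were picked out by the positions of the libraries and not by a test, and many named genes were chosen after their values were seen. Over all tested genes 7.38% lay above and 5.94% below on a high-fat diet. The shares were 8.60% and 8.75% in control hearts and 7.95% and 6.99% in aged hearts. The share of all tested genes with opposite positions was not counted, so these 3 cases are descriptions. The interaction test gave an adjusted p of 0.244 for Bhlhe40 against aged hearts and 0.127 for Egr2 against control hearts in edgeR.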

How the results depend on the processing

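The calls depended on the test and on single libraries. The genes higher and lower in CCR2+ CRMs numbered 3 and 3 in the reported fit, 176 and 572 in DESeq2, 1 and 1 in limma-voom and over all 18 libraries, 4 and 1 under RLE scaling, 1 and 4 by total count, 4 and 5 without a filter on low counts and 4 and 6 with at least 10 counts in every library. With no fold change threshold, or with a log2 fold change beyond 1, they numbered 6 and 3. Without 1 library they ranged from 0 to 3 higher and from 0 to 1 lower, and without library 3 of both subsets both were 0.

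Genes whose subset difference differed from control hearts numbered 3 in the reported fit, 1799 in DESeq2, 0 under RLE scaling, 25 by total count, 477 without a filter, 54 with at least 10 counts in every library, and 0 without any 1 high-fat diet library or without CCR2- library 3 of control hearts. Against aged hearts they numbered 0, but 1043 in DESeq2, 228 without a filter and 7 with at least 10 counts in every library. The cause was not tested.

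Equal replicate numbers were not shown to be pairs, although in the deviations from the subset means each of the 6 libraries correlated best with the one of its own number. With the replicate block 2 genes were higher and 0 lower, and 0 interactions were called against either condition.

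Of 115 named genes 17 changed sign under some alternative, 3 of them with a log2 fold change above its standard error in the reported fit. Ftl1 became 0.11 in DESeq2 and 0.11 under RLE scaling. Without 1 library, Ifi27l2a ranged from -0.68 to 0.0086 and Ciita from -1.92 to 4.81. The median of the class I list became -0.0522 by total count and ranged from -0.0554 to 0.249 without 1 library, and that of the growth factor list ranged from -1.01 to 0.0653. Of 1724 pairs of a named gene and an alternative, 1585 kept direction and side of the threshold. Nearly all named genes were uncalled in the reported fit, so a pair counted here when the gene stayed uncalled with the same sign. Many of these genes were also chosen after their values were seen, so the count does not measure how stable the calls are. With 3 libraries a subset, an exact permutation test of a single gene cannot give a two-sided p below 0.1.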
